A study of Mus musculus with 20 samples.

Results

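Neuropeptide Y, a transmitter of inhibitory interneurons, and the 3 receptors of it that the array design names as Npy1r, Npy2r and Npy5r were read in mouse hippocampal neurons after treatment with AP5, an NMDA receptor antagonist, and other compounds. The 4 genes were taken by their names in the scanner output, out of 27656 genes or unnamed transcripts on the array, and each has 1 non-control probe. They were chosen by a measured value, the higher log2 ratio of Npy2r with AP5 in these same arrays, so their AP5 differences are given as a description, with no test. All 4 passed the filter on dim probes (sample channel well above background on at least 5 arrays) and are among the 19338 genes tested. All 4 were well above background in the sample channel on all 20 arrays.

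Dissociated hippocampal neurons of the mouse, held in 6-well plates, received vehicle (control), AP5 at 100 µM, NVP-AAM077 (NVP) at 100 nM or, at 1 µM, a compound with a Ro25 code (Ro25). Exposure lasted 24 h and fell on day 21 in culture. AP5 and NVP are NMDA receptor antagonists, the labels do not say how Ro25 acts, and the series asks about NMDA receptor-dependent induction of Ptgs2 and astrocyte proliferation. Each group has 5 arrays, 20 in all. Cy5 carried the sample and Cy3 a universal reference RNA of the mouse on every array, with no dye swap, so a log2 ratio is sample over reference. Whether the arrays of a group come from separate cultures is not stated, so SDs and p-values cover the spread between samples only, possibly a technical one. In bulk RNA, fewer cells of a type and less RNA per cell cannot be told apart.

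Neuropeptide Y is made as a precursor, which prohormone convertases cut and an amidating enzyme finishes. It acts on receptors that couple to inhibitory G proteins of the Gi/o class, which lower cyclic AMP and can open Kcnj3 and Kcnj6 potassium channels and close Cacna1b calcium channels. In the hippocampus Npy2r is best known as a presynaptic receptor that reduces transmitter release, Npy1r as a mainly postsynaptic one, and Npy5r shares ligands with both and is known for its part in feeding.

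By the coordinates in the files (build mm7), the Npy probe lies on chr6:49783794-49787556, a span of 3763 bases that is far longer than a probe. The Npy2r probe lies on chr3:82643647-82643706 on the minus strand. The probes of Npy1r, at chr8:65162338-65162397, and of Npy5r, at chr8:65137033-65137092 on the minus strand, are on 1 chromosome, and the RefSeq table lists 0 genes between these 2 genes. No annotation of that build was used, so exon positions are not given. The RefSeq promoter table (GRCm38.p6) matched all 4 genes, with 1 window each. The 250 bases before the start are shown for Npy2r, the member that was higher with AP5, and for Npy, the ligand, at chr3:82548086-82548335 (minus strand) and chr6:49822460-49822709 (plus strand), written 5′ to 3′ with the GC box GGGCGG in capitals.
Npy2r: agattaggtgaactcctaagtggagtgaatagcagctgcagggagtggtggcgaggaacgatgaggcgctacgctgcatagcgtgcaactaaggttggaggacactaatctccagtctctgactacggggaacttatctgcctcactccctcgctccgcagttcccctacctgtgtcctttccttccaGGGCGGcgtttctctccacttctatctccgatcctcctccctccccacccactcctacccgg
Npy: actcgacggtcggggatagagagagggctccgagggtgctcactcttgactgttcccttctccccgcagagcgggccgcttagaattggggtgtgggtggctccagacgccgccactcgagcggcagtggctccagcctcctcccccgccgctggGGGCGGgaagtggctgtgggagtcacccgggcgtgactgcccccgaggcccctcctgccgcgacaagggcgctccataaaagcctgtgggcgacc

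The GC box, or its reverse complement CCGCCC, was in these 2 windows and in 32.7% of all 32851 windows of that length. Among the other motifs searched on both strands, TGACTCA (reverse complement TGAGTCA, the AP-1 site) was in the Npy1r window and in 4.46% of all windows. The E-box CACGTG was in the Npy5r window and in 6.02% of all. The cyclic AMP response element TGACGTCA (1.55% of all windows) and its core TGACG (17.8%, overlapping the former) were in none of the 4 windows. TATAAA (12.4%) and the exact sequence searched for the serum response element (0.0609%) were also in none. Other forms of the serum response element were not searched, so its absence from these windows is not shown. G and C made up 56.8% of the Npy2r window and 69.2% of the Npy window, against a median of 52.4% over all windows. A match is a run of letters and no evidence of binding.

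Before the values, arrays AP5 1 and control 5 need a remark. On AP5 1, 3 spots with a bright surround gave net Cy3 signals below -100, the lowest at -4794. With every spot in the background fit, these spots moved the fitted Cy3 background mean of that array from -3.63 to -148.5, which adds signal to every Cy3 value and shrinks all its ratios. The SD of the log2 ratio over genes was then 1.43 on AP5 1, and 1.66 once the 17 spots whose surround the scanner flags were left out of the fit. Control 5 had 2 spots with a net Cy3 signal below -100, the lowest at -224.8, which moved its fitted mean from -2.97 to -24.8 and the SD from 1.56 to 1.52. That correction was made after the member values had been seen, and it enlarged the Npy2r difference. Values without such spots are given throughout, and AP5 values of the fit on every spot are printed for each of the 4 genes and for the lists whose counts they change.

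Npy2r had its highest log2 ratios in the AP5 group. The 5 control arrays gave 1.56, 0.89, 1.15, 1.40 and 1.29, in the order of the sample numbers. The 5 AP5 arrays gave 2.35, 2.85, 3.07, 2.54 and 3.54. All AP5 arrays lay above all control arrays, and AP5 5 was the highest of all 20. The NVP arrays gave 1.62, 1.54, 1.41, 1.25 and 2.25, and the Ro25 arrays 1.54, 1.88, 1.06, 1.38 and 2.31. NVP and Ro25 overlapped control, while the lowest AP5 array was just above the highest NVP and Ro25 arrays, which are number 5 in both groups. AP5 arrays did not overlap NVP arrays for 8.03% of all genes, and Ro25 arrays for 4.45%, and these contrasts too hold the arrays on which the genes were chosen.

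Group means for Npy2r were 1.26 ± 0.25 in control, 1.61 ± 0.38 with NVP, 1.63 ± 0.48 with Ro25 and 2.87 ± 0.47 with AP5 (SD, n = 5 each). In that order, control, NVP and Ro25 did not differ beyond their spread. AP5 exceeded control by 1.61 on the log2 scale (SE 0.23, 95% interval 1.13 to 2.10), a 3.06-fold ratio, NVP by 1.26 (SE 0.23) and Ro25 by 1.24 (SE 0.23). With every spot in the background fit, AP5 1 read 1.31 and overlapped the other groups, and control 5 read 1.13 in place of 1.29. The AP5 difference was then 1.44 (SE 0.31) from control, 1.05 from NVP and 1.03 from Ro25.

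By size of rise with AP5, Npy2r stood at position 3 of the 19338 genes. Nos1 (2.24, SE 0.18), the neuronal nitric oxide synthase, and Ly6g6e (1.94, SE 0.18) rose more, and Celsr1 (1.25, SE 0.33) followed. Of all genes, 4.25% were higher with AP5 at a limma adjusted p under 0.05, 8.61% were called in either direction, and 8.34% had AP5 and control arrays that did not overlap. Npy2r is the 1 member called, and since it was chosen for that rise nothing is read from the count.

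**Figure D1:**
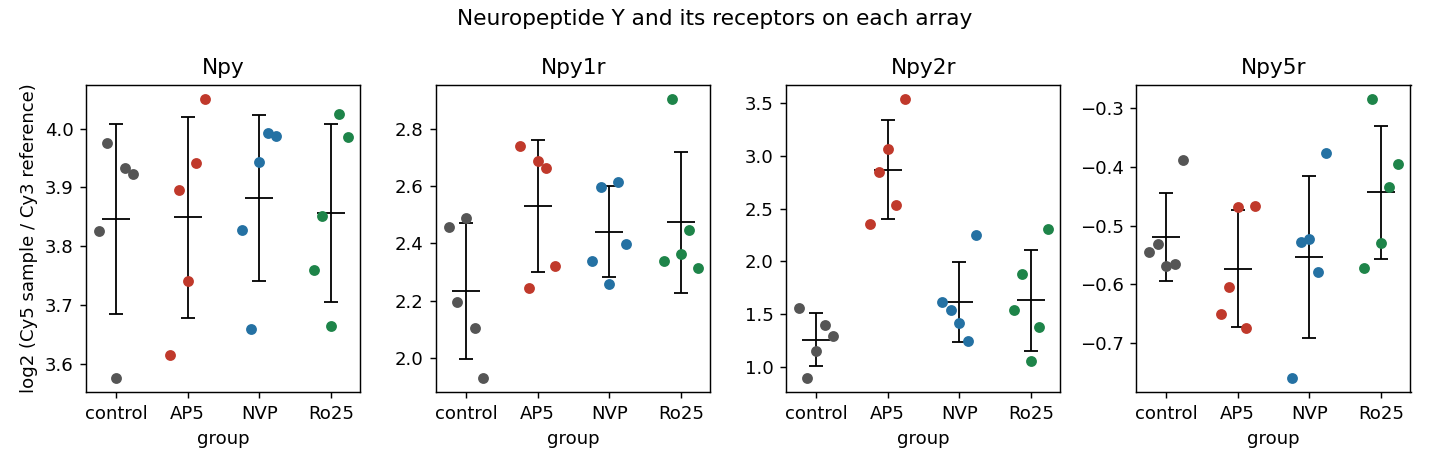
Log2 ratio of sample (Cy5) over reference (Cy3) for the 4 genes, 1 panel each with its own vertical scale. Points are arrays (5 per group, in the order of the sample numbers), bars are mean and SD. The AP5 points for Npy2r, 2.35 to 3.54, lie above all control points, and the groups overlap in the other 3 panels.

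The size of the Npy2r difference depends on how the dim reference is handled. Npy2r was well above background in the reference channel on 0 of 20 arrays, where its net Cy3 intensity was between -2.65 and 8.07, so its ratio is set largely by the sample channel and by the offset of 50 added to both. In Cy5 intensity over background, a linear scale with no scaling between arrays, the AP5 arrays gave 339, 374, 506, 324 and 823. The control arrays gave 150, 78.4, 88.7, 130 and 118. In this reading AP5 and control again did not overlap, but the highest NVP array (327) and Ro25 array (329) passed the lowest AP5 array.

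After scaling between arrays, the log2 Cy5 signal of Npy2r was 8.68 to 9.59 with AP5, 7.01 to 7.62 in control, 7.35 to 8.33 with NVP and 7.25 to 8.39 with Ro25. On this scale AP5 overlapped no other group. The scanner's own processed signals, which add no offset, gave Npy2r log2 ratios of 6.40 to 8.03 with AP5 and 3.69 to 5.07 in control, a difference of 2.49 (SE 0.49). There the highest NVP array (6.97) and Ro25 array (6.71) passed the lowest AP5 array. The value table that the authors deposited gave group means of 2.84 with AP5 and 1.25 in control, a difference of 1.59 (SE 0.23). Its lowest AP5 array (2.28) was below its highest Ro25 array (2.34).

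**Figure D2:**
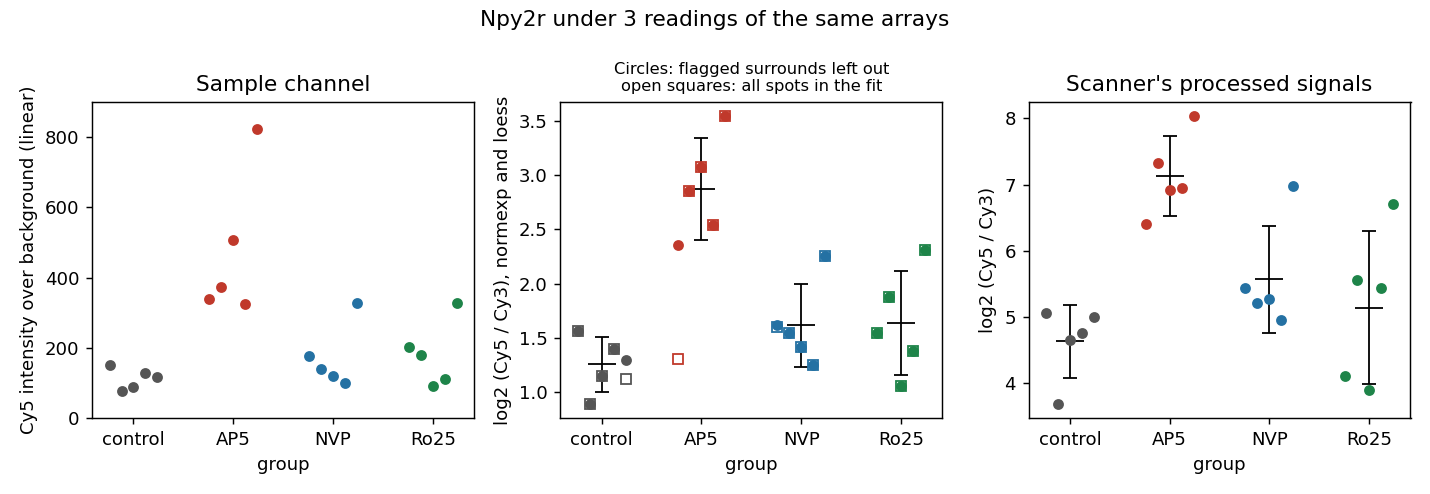
Npy2r on each array in 3 readings: Cy5 intensity over background (left, linear), log2 ratio after normexp and loess (middle), and log2 ratio of the scanner's processed signals (right). Filled points are arrays, bars are mean and SD, and open squares in the middle panel come from the background fit on all spots, where AP5 1 falls from 2.35 to 1.31.

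Slide and group are entangled here. The file headers put the 20 arrays on 7 slides, and no slide holds both AP5 and control. Scan day is entangled too: all control and NVP arrays were scanned on day 1. AP5 1 and Ro25 2 were scanned on day 2, and AP5 3, alone on its slide, on day 3. On 1 slide that joined AP5 to NVP, AP5 5 read 3.54 for Npy2r against 1.25 to 1.54 on 3 NVP arrays. On another, AP5 1 read 2.35 against 1.88 on Ro25 2. That last order reversed with every spot in the background fit, where AP5 1 read 1.31 and Ro25 2 read 1.88. On the slide that joined Ro25 to control, 3 Ro25 arrays read 1.38 to 2.31 and control 3 read 1.15. With slide as a fixed block the AP5 difference for Npy2r was 2.12 (SE 0.66) and was not called, and with AP5 1 also left out it was 3.61 (SE 0.59). Those blocked values reach control only through NVP and Ro25 arrays and through control 3. On the AP5 side they rest on AP5 1 and AP5 5, since the other AP5 arrays share a slide with no other group. Without AP5 1 the path runs through the single arrays AP5 5, Ro25 3 and control 3, so 3.61 is no difference between whole groups. The same holds for the blocked AP5 values of the other genes.

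For NVP and Ro25, which did not enter the choice of the genes, the Npy2r differences from control did not pass the test. NVP exceeded control by 0.36 (SE 0.23, 95% interval -0.13 to 0.84), with a limma adjusted p of 0.877 and an exact two-sided permutation p of 0.111. Ro25 exceeded control by 0.37 (SE 0.23, interval -0.11 to 0.86), with a limma adjusted p of 0.999 and an exact permutation p of 0.190. For both compounds 4 of 5 arrays were above the control mean. Without NVP 5 the NVP difference was 0.20, and without Ro25 5 the Ro25 difference was 0.21. NVP differed from Ro25 by -0.02 (SE 0.23, interval -0.50 to 0.47; limma adjusted p 0.996, exact permutation p 0.960). These contrasts share the control arrays with the AP5 contrast, and the 2 compounds were given at different doses.

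Npy, the ligand, had nearly the same mean log2 ratio in all 4 groups. The control arrays gave 3.83, 3.98, 3.58, 3.93 and 3.92, and the AP5 arrays 3.62, 3.90, 3.74, 3.94 and 4.05. NVP arrays lay between 3.66 and 3.99 and Ro25 arrays between 3.66 and 4.02. The ranges of the 4 groups overlapped almost entirely.

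Means for Npy were 3.85 ± 0.16 in control, 3.85 ± 0.17 with AP5, 3.88 ± 0.14 with NVP and 3.86 ± 0.15 with Ro25 (SD, n = 5 each), and no neighbours in that order differ beyond their spread. The AP5 difference from control was 0.0021 (SE 0.097, 95% interval -0.20 to 0.20). The NVP difference was 0.04 (interval -0.17 to 0.24; limma adjusted p 0.995, exact permutation p 0.651) and the Ro25 difference 0.01 (interval -0.19 to 0.21; limma adjusted p 0.999, exact permutation p 0.921). With every spot in the fit, AP5 1 read 2.73 for Npy and the AP5 difference was -0.16 (SE 0.17). With slide as a fixed block it was 0.39 (SE 0.23), and 0.78 (SE 0.25) with AP5 1 also left out. In the Cy5 channel alone it was -0.35 (SE 0.29). In raw Cy5 intensity the array numbered 5 was the highest of its group for Npy in all 4 groups, at 4662 with AP5, 6313 with NVP, 6382 with Ro25 and 6041 in control, and its Cy3 intensity was also the highest of each group.

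Npy1r had a higher mean log2 ratio with each compound than in control, with ranges that overlap. The control arrays gave 2.46, 2.19, 2.49, 2.10 and 1.93, and the AP5 arrays 2.74, 2.24, 2.69, 2.66 and 2.32. NVP arrays lay between 2.26 and 2.61, and Ro25 arrays between 2.32 and 2.90, where Ro25 2 stands above the other 4 of its group. Of the AP5 arrays, 3 were above every control array and 2 were within the control range.

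Means for Npy1r were 2.23 ± 0.24 in control, 2.44 ± 0.16 with NVP, 2.47 ± 0.25 with Ro25 and 2.53 ± 0.23 with AP5 (SD, n = 5 each), a series in which neighbours lie within their spread. The AP5 difference from control was 0.30 (SE 0.13, 95% interval 0.02 to 0.57). NVP exceeded control by 0.21 (interval -0.07 to 0.48; limma adjusted p 0.865, exact permutation p 0.143), and 5 of 5 NVP arrays were above the control mean. Ro25 exceeded it by 0.24 (interval -0.03 to 0.51; limma adjusted p 0.999, exact permutation p 0.167), again in 5 of 5 arrays. With slide as a fixed block all 3 differences turned negative, at -0.28 for AP5, -0.11 for NVP and -0.12 for Ro25. With every spot in the fit, AP5 1 read 1.73 in place of 2.74 for Npy1r and control 5 read 1.74 in place of 1.93, and the AP5 difference was 0.13 (SE 0.17).

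Npy5r, whose gene adjoins Npy1r on the same chromosome, had a log2 ratio below 0 on all 20 arrays. With no dye swap, a dye effect of the probe cannot be told apart from a lower level than in the reference RNA. The control arrays gave -0.54, -0.53, -0.57, -0.57 and -0.39, and the AP5 arrays -0.65, -0.61, -0.47, -0.68 and -0.47. NVP arrays lay between -0.76 and -0.38 and Ro25 arrays between -0.57 and -0.28, so that all groups overlapped.

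Means for Npy5r were -0.57 ± 0.10 with AP5, -0.55 ± 0.14 with NVP, -0.52 ± 0.07 in control and -0.44 ± 0.11 with Ro25 (SD, n = 5 each), and neighbours in that order lie within their spread. AP5 differed from control by -0.05 (SE 0.073, 95% interval -0.21 to 0.10). That value was -0.03 with every spot in the fit, and turned to 0.08 (SE 0.083) in the Cy5 channel alone and to 0.14 (SE 0.24) with slide as a fixed block and AP5 1 left out. NVP differed from control by -0.03 (interval -0.19 to 0.12; limma adjusted p 0.995, exact permutation p 0.754) and Ro25 by 0.08 (interval -0.08 to 0.23; limma adjusted p 0.999, exact permutation p 0.302). NVP differed from Ro25 by -0.11 (interval -0.26 to 0.04; limma adjusted p 0.841, exact permutation p 0.246).

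In the 3 contrasts that the choice of genes did not use, 0 of 4 members passed limma's adjusted threshold, and 0 of 4 had an unadjusted limma p under 0.05. Of all genes, 0% were called for NVP against control, 0.0207% for Ro25 against control and 0% for NVP against Ro25. At an unadjusted limma p under 0.05 these shares were 6.81%, 5.17% and 6.9%. The smallest p that the exact permutation test can give with 5 arrays against 5 is 0.00794, and the lowest permutation p was 0.571 after Benjamini-Hochberg adjustment over the 12 tests (4 genes in 3 contrasts). In data simulated for NVP against control, the fit called 82% of genes with a built-in 1.5-fold change and 99% of those with a 2-fold change. These were randomly picked genes, with independent noise and no slide effect. The shares do not carry over to Npy2r, whose within-group SD was larger than that of 97.3% of the genes tested.

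**Figure D3:**
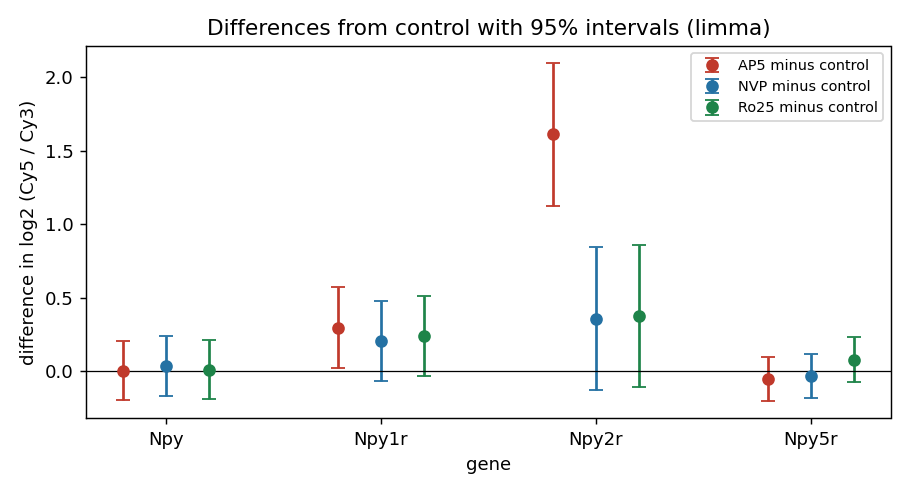
Difference from control in log2 ratio for each gene and compound, with 95% intervals from limma (5 arrays per group). The AP5 interval of Npy2r, 1.13 to 2.10, is the one that lies well above 0, and it was the basis on which the genes were chosen. All NVP and Ro25 intervals include 0.

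The 4 genes varied to different degrees within groups. The within-group SD of Npy2r was 0.40, larger than that of 97.3% of the genes tested, and that of Npy1r was 0.22, larger than 81.0%. Npy, at 0.16, was near the median of all genes (0.15), and Npy5r, at 0.11, was more even than most, with 21.7% of genes below it. Over the 20 arrays, which share slides, reference and normalization, Pearson's r between members was between -0.36 (Npy with Npy1r) and 0.30 (Npy with Npy5r). Within groups Npy2r and Npy5r had r = 0.58, against 0.06 over all arrays. These coefficients are descriptions.

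The genes whose log2 ratio followed each member most closely over the 20 arrays were taken from 16743 genes well above background in the sample channel on at least 15 arrays. For Npy2r they were Apcdd1 (r = 0.93, and 0.80 within groups), Sdcbp (0.89, and 0.60 within groups), Mrgpre (0.88, and 0.64), Laptm4b (0.88, and 0.62) and Tbc1d14 (0.88, and 0.48). The lower values within groups leave out the AP5 shift for which Npy2r was chosen. For Npy1r they were an unnamed transcript (0.93), Atrx (0.92), Kit (0.91), Galnt3 (0.90) and BC068026 (0.89). Values were lower for Npy, led by Tac1 (0.82), the precursor of substance P, then Ccnyl1 (0.79), Kbtbd3 (0.79), Ppcdc (0.78) and Punc (0.77). Npy5r was followed by Tmem168 (0.78), Lamp5 (0.77), which marks a class of interneurons, Rassf3 (0.77), Zfp455 (0.76) and Eloa (0.75).

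Relatives of the ligand and receptors did not pass the test with AP5. Pyy, the gut peptide that shares these receptors, had a log2 ratio of 0.52 ± 0.16 in control and 0.42 ± 0.17 with AP5, and Npy4r, the receptor preferred by pancreatic polypeptide, 0.07 ± 0.08 and -0.07 ± 0.18 (SD, n = 5 each). Ppy and Npy6r were on the array and did not pass the filter on dim probes. Among 9 genes of peptide processing and breakdown, 1 fell and 0 rose with AP5, with a median difference of -0.07 against -0.0041 over all genes tested. The 1 is Pcsk1, a prohormone convertase, which was 4.01 ± 0.19 in control and 2.98 ± 0.25 with AP5 (difference -1.03, SE 0.11, limma adjusted p 2.37e-06). Pcsk1 was 3.91 ± 0.10 with NVP and 3.87 ± 0.12 with Ro25. The other convertase Pcsk2 (0.09), the carboxypeptidase Cpe (-0.01) and the peptidase Dpp4 (-0.07) did not pass, and neither did the amidating enzyme Pam, at -0.56 with an SE of 0.21 (limma adjusted p 0.116).

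Of 33 tested genes of Gi/o signalling, 1 was higher and 3 were lower with AP5, and the median difference was -0.02. Over all genes tested, 4.25% were called higher and 8.61% in either direction, and the counts of every list stand beside those shares. Gng4, a G protein gamma subunit, fell most (-0.92, SE 0.13, limma adjusted p 6.94e-05), with Gng2 (-0.33) and the beta subunit Gnb5 (-0.28) also lower, and the alpha subunit Gnai1 was higher by 0.46. The alpha subunit Gnao1 (-0.03), the channels Kcnj3 (-0.11) and Kcnj6 (0.12) and Cacna1b (0.25) did not pass. Without AP5 1, and with every spot in the fit, the Gnai1 call was lost, leaving 0 higher and 3 lower.

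Among 18 other neuropeptide genes, 2 fell and 1 rose, with a median of -0.04. Grp, gastrin-releasing peptide, fell by 1.58 (SE 0.36), Adcyap1, the PACAP precursor, fell by 1.07 (SE 0.22), and the dynorphin precursor Pdyn rose by 0.81 (SE 0.20), with limma adjusted p of 0.00751, 0.00352 and 0.0142. With every spot in the fit the Pdyn call was lost, leaving 0 higher and 2 lower with a median of -0.10. Of 26 tested receptors of other peptides, 3 rose and 6 fell, and the median was 0.03. The nociceptin receptor Oprl1 (0.67, SE 0.12) and the melanocortin receptor Mc4r (0.28, SE 0.06) rose, while the cholecystokinin receptor Cckbr (-0.66, SE 0.12) and the neuromedin B receptor Nmbr (-0.82, SE 0.18) fell, as did Prokr2 (-0.39). Without AP5 1 the count was 2 higher and 4 lower, and with every spot in the fit 0 higher and 6 lower with a median of -0.08.

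**Figure D4:**
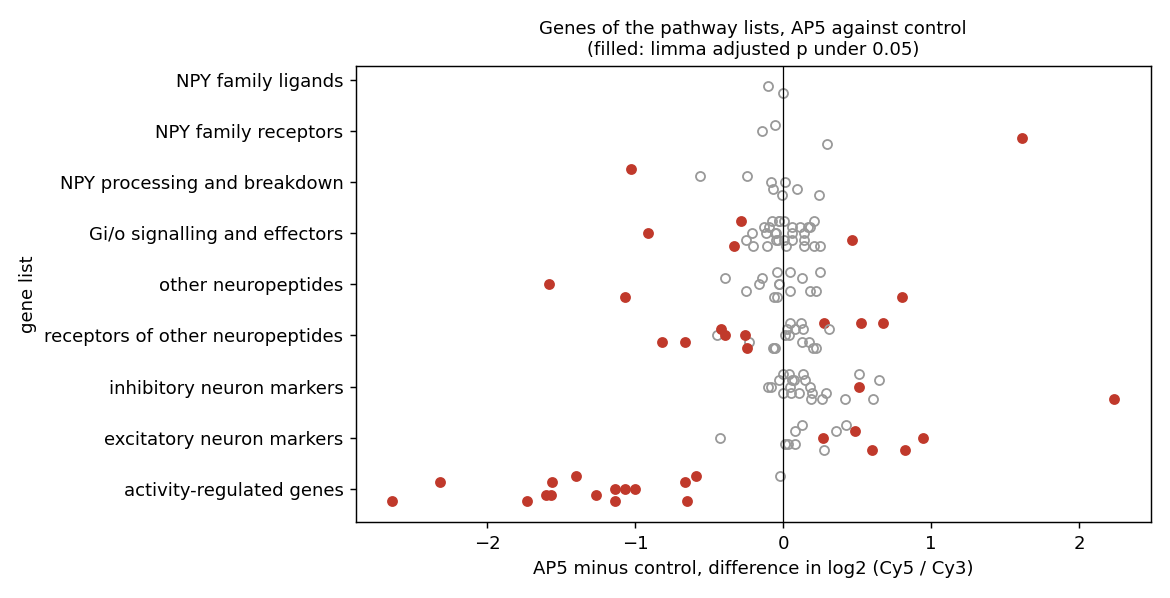
Difference in log2 ratio between AP5 and control for each tested gene of 9 lists, 1 point per gene, with no meaning in the vertical scatter. Filled points passed a limma adjusted p of 0.05. Npy2r, at 1.61, is the filled point among the receptors, Nos1, at 2.24, is the rightmost, and 15 of 16 activity-regulated genes are filled on the left.

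Markers of the cells that make and receive neuropeptide Y moved as follows. Of 24 tested inhibitory neuron markers, 2 rose with AP5 and 0 fell, with a median of 0.14: Nos1 went from -0.40 ± 0.32 to 1.83 ± 0.24 (limma adjusted p 7.74e-08) and the calretinin gene Calb2 rose by 0.51 (SE 0.15). The count was 1 higher without AP5 1, with a median of 0.11, and 1 higher with every spot in the fit, with a median of 0.04. Gad1 (-0.08), Gad2 (0.06) and Slc32a1 (-0.0011), which define inhibitory neurons, and Sst (0.05), which marks a class of them, did not pass. The mean log2 ratio of the list was 2.64 to 2.84 on AP5 arrays and 2.31 to 2.57 on control arrays. Of 14 excitatory neuron markers, 5 rose and 0 fell, with a median of 0.27, among them Bhlhe22 (0.82, SE 0.17) and Tbr1 (0.94, SE 0.25). Of the 14, 13 had a higher mean with AP5, some by little. Slc17a7 was 3.45 ± 0.10 in control and 3.47 ± 0.12 with AP5, Neurod2 3.46 ± 0.10 and 3.50 ± 0.09, and Camk2a 3.47 ± 0.14 and 3.55 ± 0.16. Neurod6 went the other way, at 5.95 ± 0.11 and 5.53 ± 0.38, and was not called. The mean of the list was 3.47 to 3.65 with AP5 and 3.06 to 3.37 in control. With every spot in the fit 1 of the 14 was called, and 3 without AP5 1. Pan-neuronal markers, which were well above background on all 20 arrays, had 2 of 12 higher, a count that fell to 0 without AP5 1 and with every spot in the fit, with list means of 4.80 to 4.90 with AP5 and 4.70 to 4.93 in control. Their part in the Npy2r difference was not tested.

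Glial and vascular markers gave few calls: 0 of 12 for astrocytes, 0 of 10 for oligodendrocytes and their precursors, 1 of 8 for microglia (Csf1r, higher by 0.44) and 2 of 9 for endothelium and fibroblasts (Kdr higher by 0.94, Col1a2 lower by 0.24). Without AP5 1 the last list had 2 higher and 0 lower. The list mean for astrocytes was 3.37 to 4.13 with AP5 and 3.18 to 3.94 in control. Of the 12 astrocyte markers, 11 had a higher mean with AP5, with a median difference of 0.17. That median was 0.25 without AP5 1 and 0.04 with every spot in the fit. P2ry12, C1qc, Pecam1 and Cdh5 were well above background on 0 of 20 arrays. Of the 16 activity-regulated genes, 15 were called lower and 0 higher with AP5, with a median of -1.20. Without AP5 1, or with every spot in the fit, 14 of 16 were lower and 0 higher. Of all genes, 4.25% were called higher and 8.61% in either direction. The list was written with earlier results of these data known, so it is no independent check of the treatment. With slide as a fixed block, 59 genes in all were called for AP5 against control in place of 1665. Of these 59, 6 were activity-regulated and 0 belonged to any other list. With slide as a random block, 1787 genes were called.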

How the data were processed

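RNA of 20 samples was hybridised to 2-colour Agilent arrays. The authors deposited scanner output, which gives each spot a linear intensity per channel and, as LogRatio, the log10 of Cy5 over Cy3, per the file headers. The headers name Feature Extraction 10.7.3.1, and the submitters' processing notes name 11.0. The authors also deposited a value table of log2 ratios. No label or header used here states its normalization. Its columns had medians of 0.0302 to 0.0626 and, by correlation with the scanner's ratios (0.973 to 0.985), run as Cy5 over Cy3, with the centring unknown.

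Background was corrected with normexp (offset 50) and dyes by loess within arrays. Spots whose surround the scanner flags as non-uniform (0 to 17 per array) were kept out of the fit and of the values. This step was added after the member values had been seen, because on AP5 1 the fit on every spot moved the Cy3 background mean to -148.5 (-146.5 by maximum likelihood), while on the other arrays it lay between -24.8 and -1.56. It raises the AP5 difference of Npy2r from 1.44 to 1.61, and values from the fit on every spot are given as an alternative. Outlier and control spots were left out. Each gene was read from its brightest probe. Group means were fitted with limma 3.58.1 (R 4.3.3, with version 1.17.8 of data.table), with Benjamini-Hochberg adjustment over 19338 genes. The exact permutation tests used all 252 splits of 10 arrays, two-sided.

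The members, lists and rules were chosen with earlier results of these data known. Named from the lists were 18 fixed genes and, per list and comparison, up to 5 called genes of lowest adjusted p (Celsr1 and Ly6g6e, and the dim or called markers named by count, were added after their values were seen), and per member the 5 genes of highest r. Slc17a7, Neurod2, Camk2a and Neurod6 were also added after their values were seen. The code was tested on simulated data. The alternatives that use Cy5 alone, the fit on every spot and the slide block without AP5 1 were chosen after seeing the data. The number of arrays limits precision.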

Additional observations from a re-analysis of the deposited data

Results flagged for a closer look

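For the 4 genes in the 4 groups, 16 sets of 5 arrays were examined for an array far from the rest, which chance gives in about 1 set of 20, and 2 were found. Npy1r on Ro25 2 had a log2 ratio of 2.90, while the nearest other Ro25 array had 2.45. Npy5r on control 5 had a log2 ratio of -0.39, while the nearest other control array had -0.53.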

How the results depend on the processing

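The AP5 difference of Npy2r was positive in every setting run. It was 2.12 with slide as a fixed block, 2.49 with the scanner's processed signals, 2.04 with a normexp offset of 0 and 1.44 with the fit on every spot. It was 3.61 with the slide block and AP5 1 left out, where AP5 5 alone carries the AP5 value. Leaving out 1 array gave 1.44 (without AP5 5) to 1.74 (without AP5 1), with 1 member called each time. Of the 16 other settings, 14 had 1 member called for AP5 against control, and with either fixed slide block 0 were called. Npy2r, the member called in the main fit, was chosen for this rise, so these counts are no support for it. No member was called in the 3 other contrasts in any setting. Numbers in the titles were not taken to pair samples. Same-numbered arrays of different groups had correlations of -0.45 to 0.80 (median 0.03), with 13 of 30 over 0.1. Arrays with different numbers had -0.62 to 0.78 (median -0.04), with 36 of 120 over 0.1. Whether same-numbered arrays share a culture was not tested. With the replicate block the Npy2r value stayed 1.61 (SE 0.18), and 1818 genes were called in place of 1665.

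Some differences near 0 changed sign, and the cause was not tested. Npy1r turned to -0.11 (NVP) and -0.12 (Ro25) against control with the slide block, with and without AP5 1, and its NVP against Ro25 value to 0.0062 and 0.0063, or 0.075 on the first scan day. With Cy5 alone, the AP5 difference from control was -0.35 for Npy and 0.082 for Npy5r, and Npy became -0.12 (NVP) and -0.18 (Ro25) and Npy5r 0.012 (NVP) against control; the last was 0.063 with the block without AP5 1. Between NVP and Ro25, Npy was -0.040 with the scanner's signals and -0.0074 with offset 0, and Npy2r was 0.088 and 0.88 with the 2 slide blocks, 0.043 on the first scan day, 0.43 with the scanner's signals and 0.12 with offset 0. Leaving out 1 array gave, for NVP against control, -0.033 to 0.091 for Npy and -0.078 to 0.019 for Npy5r, for Ro25 against control -0.058 to 0.058 for Npy, and for NVP against Ro25 -0.023 to 0.081 for Npy, -0.076 to 0.075 for Npy1r and -0.18 to 0.15 for Npy2r.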
